A study of Mus musculus with 19 samples.

Results

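Genes that mark microglia, the resident macrophages of the brain, were followed across all 4 groups of the study. They are Aif1, Cx3cr1, P2ry12, Tmem119, C1qa, C1qb, C1qc, Csf1r, Trem2 and Gpnmb, and they were taken by gene symbol from the deposited tables, 10 of the 24394 genes in use, all of them found. Levels are given as CPM, the reads of a gene scaled to the total of reads in genes of the same library. The genes were listed by name and not by their measured values, although results of these data were known when the list was made.

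Microglia enter the brain during development and keep themselves in number through CSF1R, the receptor for CSF1 and IL-34. In the resting state they express a set of homeostatic genes, among them the ADP receptor P2RY12, the fractalkine receptor CX3CR1 and the surface protein TMEM119. In disease, injury and demyelination many of these cells lower the homeostatic genes and raise an activation set that includes the lipid receptor TREM2 and the glycoprotein GPNMB. Microglia are also the main source in brain of C1q, the starter protein of the classical complement cascade, which is assembled from the chains C1QA, C1QB and C1QC and tags synapses and debris for removal.

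Bulk RNA-seq was performed on a block of hippocampus and cortex from 1 hemisphere of 19 male C57BL/6NJ mice, with 1 library per mouse. WT mice, and KO mice without Fabp7, the brain fatty acid binding protein of astrocytes and neural progenitors, were either handled without a shock (sham) or given 1 electroshock a day through ear clips, from 20 mA in steps of 2 mA, until a maximal seizure with hind limb extension (MEST), after which tissue was taken at ZT20. The groups were WT sham (n = 5, aged 15.9 to 16.3 weeks), KO sham (n = 4, 17.3 to 17.9 weeks), WT MEST (n = 5, 17.4 to 18.0 weeks) and KO MEST (n = 5, 18.9 to 19.4 weeks). The sources used here do not give the cells in which the knockout was made, nor the number of daily shocks of each MEST mouse. Age moved with both genotype and shock and cannot be told apart from them.

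Reads in genes ranged from 27.6 to 32.3 M in WT sham, 34.3 to 46.3 M in KO sham, 30.3 to 38.5 M in WT MEST and 34.4 to 51.7 M in KO MEST libraries. Fabp7 lay at 10.1 CPM or more in every WT library and at 0.198 CPM or less in every KO library, as their labels give. The WT sham libraries stood apart from all others on the first principal component (22.4% of the variance), where they scored 18.1 to 22.4 and the other 14 libraries -12.0 to -0.646. The comparisons of KO sham with WT sham and of WT MEST with WT sham both rest on these 5 libraries.

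Regulatory sequence is shown for P2ry12, C1qb and Gpnmb, since P2ry12 and C1qb changed in opposite directions in the same comparisons and Gpnmb carried the seizure comparison in KO mice. RefSeq start sites on GRCm38.p6 were matched for 7 of the 10 genes, and no promoter entry was matched for C1qa, Tmem119 and Csf1r. The windows were searched on both strands for AGGAAG (the core letters bound by PU.1, the factor that myeloid cells depend on; read as CTTCCT on the other strand), TGACTCA (an AP-1 site, bound by FOS and JUN proteins) and CACGTG (an E-box, bound for example by MITF and TFEB), which do not overlap in the stretches shown. Capitals mark the matches in the 250 bases before each start, written 5′ to 3′ on the strand of the gene.
P2ry12, chr3:59262986-59263235, minus strand: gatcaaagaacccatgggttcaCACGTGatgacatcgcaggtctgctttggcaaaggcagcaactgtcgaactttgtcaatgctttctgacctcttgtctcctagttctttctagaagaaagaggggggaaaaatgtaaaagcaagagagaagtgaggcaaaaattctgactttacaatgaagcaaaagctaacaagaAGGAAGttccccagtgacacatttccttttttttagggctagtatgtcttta
C1qb, chr4:136886201-136886450, minus strand: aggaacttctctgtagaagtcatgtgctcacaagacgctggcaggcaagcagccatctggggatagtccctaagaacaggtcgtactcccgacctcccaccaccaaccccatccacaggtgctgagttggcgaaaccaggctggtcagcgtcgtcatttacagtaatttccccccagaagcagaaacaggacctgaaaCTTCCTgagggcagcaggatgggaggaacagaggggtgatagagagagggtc
Gpnmb, chr6:49036268-49036517, plus strand: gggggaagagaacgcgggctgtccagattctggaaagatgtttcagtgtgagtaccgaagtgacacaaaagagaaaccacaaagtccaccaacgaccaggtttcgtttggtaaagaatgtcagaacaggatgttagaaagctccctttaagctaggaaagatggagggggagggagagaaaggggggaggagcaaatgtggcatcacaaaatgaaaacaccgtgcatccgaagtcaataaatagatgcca
Gpnmb around its AP-1 letters, chr6:49036516-49036542, plus strand: caggggcaagTGACTCAtgagcacgag

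P2ry12 and C1qb each held AGGAAG from position -52 relative to the start, on opposite strands, and C1qb held another from position 40. The 7 windows were also searched to 50 bases after the start, where Gpnmb held TGACTCA from position 9. Of the other members, C1qc held AGGAAG at -194 and -157 and Trem2 at -41, while none of the 3 motifs was found in the windows of Aif1 and Cx3cr1. Among all 32851 promoter windows of 300 bases, 35.4% held AGGAAG, 7.15% CACGTG and 5.20% TGACTCA. A match describes letters and not a bound site.

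The 10 genes differed widely in level. Per kilobase of exon (GENCODE vM21), the mean over the 19 libraries was highest for C1qa (41.5 ± 6.65 CPM per kb, SD) and C1qb (37.6 ± 6.59), followed by P2ry12 (19.9 ± 2.59), C1qc (16.0 ± 2.25), Csf1r (14.9 ± 1.09), Cx3cr1 (11.1 ± 0.789), Tmem119 (8.49 ± 0.675), Aif1 (3.07 ± 0.546), Trem2 (1.73 ± 0.275) and Gpnmb (0.482 ± 0.206). The SD ranges overlapped between C1qa and C1qb, between P2ry12 and C1qc and between C1qc and Csf1r, and separated the other neighbours in this order. The length used was that of all annotated exons of a gene merged, which can exceed the length of its main transcript. It was 4.95 kb for Trem2 and 1.53 kb for Aif1, and the order depends on this choice. Gpnmb was counted on 43 to 353 reads per library and Aif1 on 88 or more, and in the WT sham group these genes had the widest spread between mice (CV 35.3% and 25.2%). All 10 genes passed the filter on low values in every comparison. In bulk tissue, fewer microglia and less RNA per microglial cell cannot be told apart.

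**Figure D1:**
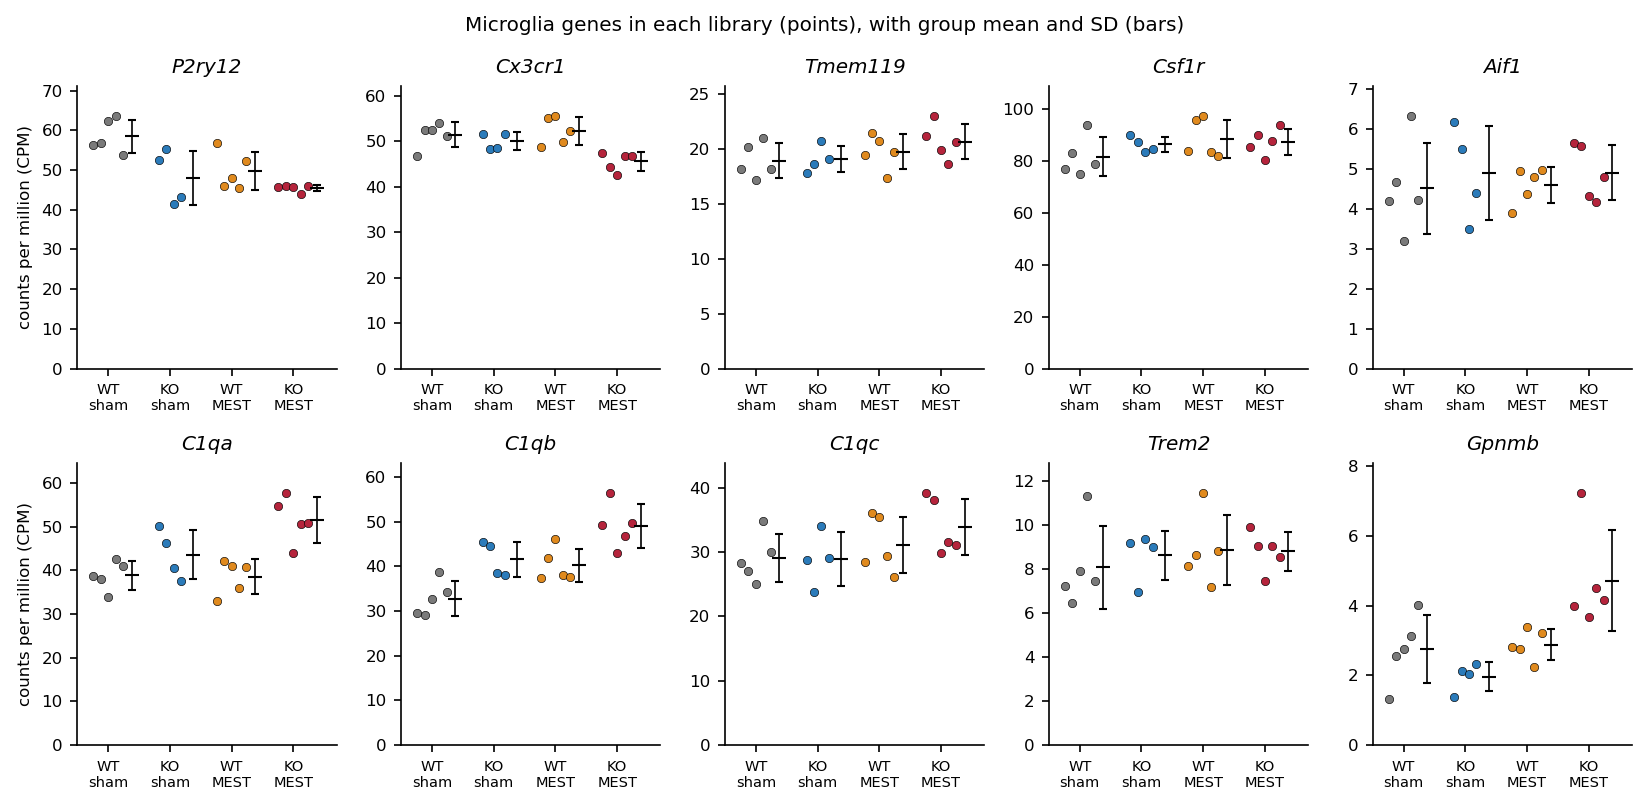
Level of each of the 10 genes in CPM (y axes from 0) in every library of the 4 groups (points), with the group mean and SD (bars). P2ry12 was highest in WT sham libraries, C1qa, C1qb and Gpnmb were highest on average in KO MEST libraries, and Csf1r and Tmem119 lay at similar levels in all groups.

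P2ry12, the receptor through which microglial processes sense ADP released from injured cells, had the largest difference between groups of the 4 homeostatic members. Its level was 56.3, 56.8, 62.3, 63.5 and 53.7 CPM in the WT sham libraries, 52.5, 55.3, 41.5 and 43.1 CPM in the KO sham libraries, 56.7, 45.9, 48.0, 45.4 and 52.3 CPM in the WT MEST libraries, and 45.7, 46.0, 45.7, 44.0 and 45.9 CPM in the KO MEST libraries. The WT sham libraries were the highest as a group, although the ranges of KO sham and of WT MEST each overlapped theirs, and the KO MEST libraries lay close together. P2ry12 was lower in KO sham than in WT sham mice by limma on log2(CPM + 0.1), the scale of all fold changes here (log2 fold change -0.29, SE 0.09, Benjamini-Hochberg adjusted p = 0.0320 over all genes). In WT mice it was lower after MEST than after sham handling (log2 fold change -0.24, SE 0.07, adjusted p = 0.0124), a call kept in each of the 22 alternative settings and left-out libraries. Between KO MEST and WT MEST mice the difference was -0.12 (adjusted p = 0.216), and between KO MEST and KO sham mice it was -0.07 (adjusted p = 0.704).

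The sham difference of P2ry12 was less firm. KO sham libraries were also all deeper than the WT sham libraries, and the part of depth was not tested. The call missed the threshold without WT sham library 1, 2, 3 or 4 (adjusted p = 0.0504, 0.0535, 0.0799 and 0.0780) and without KO sham library 4 or 5 (0.107 and 0.105), the KO libraries with the lowest values. The seizure effects of KO and WT mice on P2ry12 differed by 0.17 (adjusted p = 0.319), so that a difference between genotypes in this effect was not detected.

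Cx3cr1, the receptor of the neuronal chemokine fractalkine, was lower in KO MEST mice than in the other groups on average. Levels were 46.8, 52.5, 52.5, 53.9 and 51.2 CPM in WT sham, 51.7, 48.3, 48.5 and 51.6 CPM in KO sham, 48.6, 55.1, 55.5, 49.7 and 52.2 CPM in WT MEST and 47.4, 44.3, 42.6, 46.8 and 46.7 CPM in KO MEST libraries. Every KO MEST library was below every WT MEST library and below every KO sham library. The difference from WT MEST mice passed the test (log2 fold change -0.20, SE 0.06, adjusted p = 0.0365), and that from KO sham mice did not (-0.14, SE 0.06, adjusted p = 0.234). The call was lost without WT MEST library 2, 3 or 5 (adjusted p = 0.0696, 0.0794 and 0.0599) and without KO MEST library 2, 3 or 5 (0.0858, 0.0949 and 0.0575). In sham mice the log2 fold change of KO over WT was -0.04 (adjusted p = 0.743 from limma). The seizure effects of KO and WT mice on Cx3cr1 differed by -0.16 (adjusted p = 0.184 from limma). A difference between genotypes in this effect was thus not detected.

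Tmem119, a surface protein used to tell microglia from blood-borne macrophages, and Csf1r, the growth factor receptor on which microglial survival depends, passed the test in none of the comparisons. Tmem119 ranged from 17.2 to 23.0 CPM over all libraries, with group means of 18.9 and 19.1 CPM in WT and KO sham mice and 19.8 and 20.7 CPM in WT and KO MEST mice. For Csf1r the group means were 81.5, 86.3, 88.4 and 87.4 CPM in the same order, and its largest difference was 0.12 on the log2 scale, for WT MEST over WT sham (95% interval -0.02 to 0.25, adjusted p = 0.209). Exons of Csf1r share 15.1% of their bases with Hmgxb3 on the opposite strand, and the strand setting of the read counting is not given in the sources used here. The annotated span of P2ry12 overlaps Med12l on the opposite strand, and that of Cx3cr1 overlaps several genes on both strands. Their exons share 0.353% and 1.73% of their bases with other genes. The part of reads from overlapping genes was not tested. The summed level of the 4 homeostatic genes was 210 ± 13.5 CPM in WT sham, 204 ± 8.59 CPM in KO sham, 210 ± 10.1 CPM in WT MEST and 199 ± 6.97 CPM in KO MEST mice (SD), with ranges that overlapped between all groups.

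Aif1, which encodes the actin-binding protein IBA1 used to stain microglia, ranged from 3.19 to 6.31 CPM in WT sham, 3.49 to 6.15 CPM in KO sham, 3.9 to 4.96 CPM in WT MEST and 4.16 to 5.64 CPM in KO MEST libraries. All 4 ranges overlapped, and no comparison passed (adjusted p = 0.697 to 0.962).

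The 3 genes of C1q lie side by side within 18.7 kb of chromosome 4 (136880129 to 136898803, GRCm38, minus strand), and the test passed for C1qb in 3 comparisons, for C1qa in 1 and for C1qc in none. C1qb was 29.5, 29.0, 32.7, 38.7 and 34.1 CPM in WT sham, 45.5, 44.5, 38.6 and 37.9 CPM in KO sham, 37.5, 41.8, 46.0, 38.1 and 37.5 CPM in WT MEST and 49.3, 56.5, 43.0, 46.8 and 49.8 CPM in KO MEST libraries. WT sham libraries were the lowest as a group and KO MEST libraries the highest, with overlap between neighbouring groups. C1qb was higher in KO sham than in WT sham mice (log2 fold change 0.35, SE 0.09, adjusted p = 0.0149), higher in KO MEST than in WT MEST mice (0.29, SE 0.07, adjusted p = 0.0249) and higher in WT MEST than in WT sham mice (0.30, SE 0.08, adjusted p = 0.00836). For KO MEST over KO sham it was 0.24 (SE 0.08, adjusted p = 0.157).

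Of these calls, that for WT MEST over WT sham held in all 22 alternatives. The sham difference of C1qb fell short without KO sham library 2 (adjusted p = 0.0575), and also once a trend of fold change on transcript length had been removed (log2 fold change 0.23, adjusted p = 0.0739). The MEST difference fell short without WT MEST library 1, 4 or 5 (adjusted p = 0.0594, 0.0625 and 0.0552) and without KO MEST library 2 or 5 (0.0733 and 0.0543).

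C1qa passed between genotypes in MEST mice and in no other comparison. It was 38.6, 38.1, 33.9, 42.6 and 41.1 CPM in WT sham, 50.1, 46.3, 40.5 and 37.5 CPM in KO sham, 32.9, 42.2, 41.0, 36.0 and 40.9 CPM in WT MEST and 54.8, 57.8, 44.0, 50.5 and 50.8 CPM in KO MEST libraries. Every KO MEST library lay above every WT MEST library, whereas the KO sham libraries ran from within the WT sham range to above it. In MEST mice the log2 fold change of KO over WT was 0.42 (SE 0.08, adjusted p = 0.00525), and it passed in all 22 alternatives, with adjusted p at most 0.0180. In sham mice it was 0.16 (SE 0.09, adjusted p = 0.247), and the seizure effects of the genotypes differed by 0.26 (adjusted p = 0.165), which passed only after removal of the trend on transcript length (0.40, adjusted p = 0.0114).

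C1qc, the remaining chain, ranged from 23.8 to 39.2 CPM over all libraries, with group means of 29.0 and 28.9 CPM in WT and KO sham mice and 31.1 and 34.0 CPM in WT and KO MEST mice, and passed in no comparison. Its 95% interval for KO over WT sham ran from -0.23 to 0.21 on the log2 scale. The ratio of C1qb to C1qa CPM was 0.845 ± 0.0894 in WT sham, 0.958 ± 0.0429 in KO sham, 1.05 ± 0.0922 in WT MEST and 0.952 ± 0.0371 in KO MEST mice (SD), and that of C1qc to C1qa was 0.746 ± 0.0410, 0.676 ± 0.156, 0.809 ± 0.0968 and 0.658 ± 0.0419 in the same order. The C1qb to C1qa ratio was thus lower on average in WT sham than in WT MEST libraries, with C1qa at 38.9 ± 3.31 and 38.6 ± 3.97 CPM in these groups. The ranges of this ratio overlapped (0.761 to 0.964 and 0.918 to 1.14), and it was not tested.

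**Figure D2:**
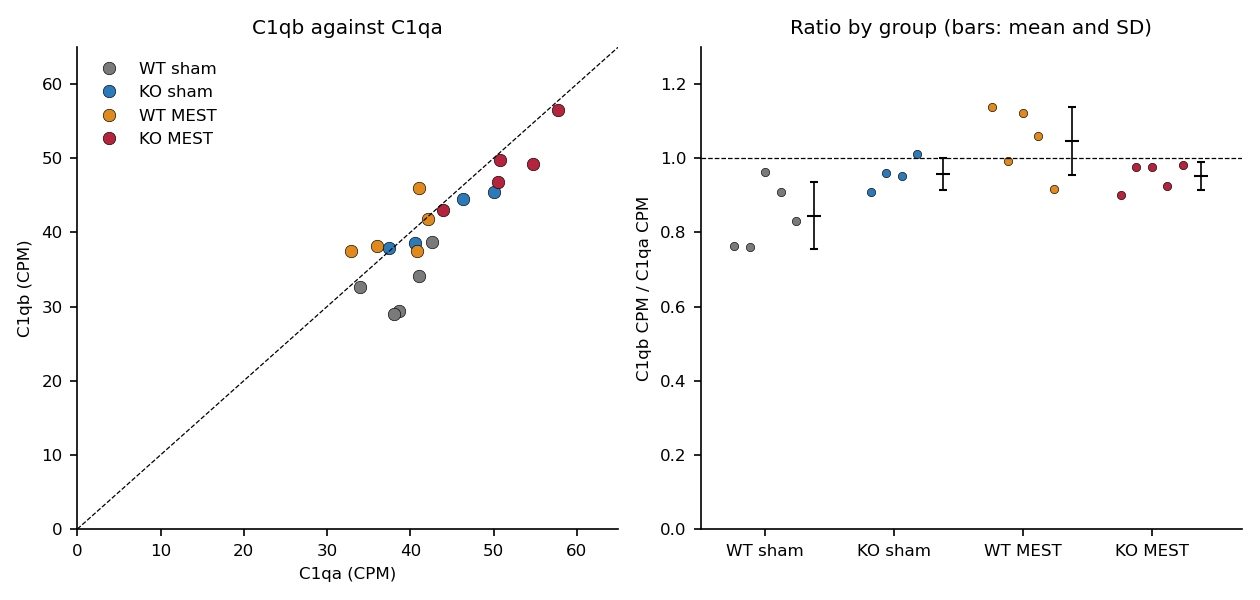
C1qb against C1qa in CPM for each library (left, dashed line at equal levels) and their ratio by group (right, points are libraries and bars the mean and SD, dashed line at a ratio of 1). The ratio was 0.845 ± 0.0894 in WT sham and 1.05 ± 0.0922 in WT MEST libraries, with overlapping ranges, and the KO MEST libraries reached the highest levels of both chains.

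Among the activation genes, Trem2, the lipid-sensing receptor that signals through TYROBP, passed in no comparison. It was 6.44 to 11.3 CPM in WT sham, 6.95 to 9.34 CPM in KO sham, 7.19 to 11.5 CPM in WT MEST and 7.47 to 9.88 CPM in KO MEST libraries, with adjusted p of 0.508 to 0.994. For KO over WT in MEST mice the log2 fold change was 0.00, with a 95% interval from -0.24 to 0.24.

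Gpnmb, a lysosome-associated glycoprotein raised in lipid-laden and phagocytic microglia, gave the largest change of the 10 genes. Its level was 1.33, 2.56, 2.76, 3.12 and 4.02 CPM in WT sham, 1.37, 2.11, 2.04 and 2.33 CPM in KO sham, 2.80, 2.76, 3.38, 2.24 and 3.22 CPM in WT MEST and 4.0, 7.24, 3.66, 4.51 and 4.17 CPM in KO MEST libraries. All 5 KO MEST libraries lay above every KO sham and every WT MEST library, and only the highest WT sham library reached into their range. In KO mice Gpnmb was 2.30-fold higher after MEST than after sham handling (log2 fold change 1.20, SE 0.20, adjusted p = 0.0173). In WT mice the change was 0.13 (SE 0.22, adjusted p = 0.723). The difference of the seizure effects passed its own test (1.08, SE 0.32, adjusted p = 0.0206), with a 95% interval whose lower end was 0.41.

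Between genotypes Gpnmb was higher in KO MEST than in WT MEST mice (log2 fold change 0.66, SE 0.17, adjusted p = 0.0217), and in sham mice it was -0.41 (SE 0.26, adjusted p = 0.318). KO MEST library 2, at 7.24 CPM, was the highest of all. Without it the difference from WT MEST mice was 0.50 (adjusted p = 0.0529), and without WT MEST library 4 it was 0.58 (adjusted p = 0.0563). The seizure effect in KO mice rested on few libraries too, since it missed the threshold without KO sham library 2, the lowest of its group (log2 fold change 1.05, adjusted p = 0.0634), or without KO MEST library 5 (1.24, adjusted p = 0.0549), and the difference of the seizure effects without KO sham library 2 was 0.92 (adjusted p = 0.0534).

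Melanocytes of the brain coverings also express Gpnmb. A list of 6 melanocyte genes, chosen after the values of Gpnmb were seen (Dct, Tyrp1, Tyr, Mlana, Pmel and Slc45a2), summed to 1.28 to 3.25 CPM in WT sham, 1.47 to 2.38 CPM in KO sham, 1.39 to 2.70 CPM in WT MEST and 1.77 to 2.65 CPM in KO MEST libraries, with overlap between all groups.

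**Figure D3:**
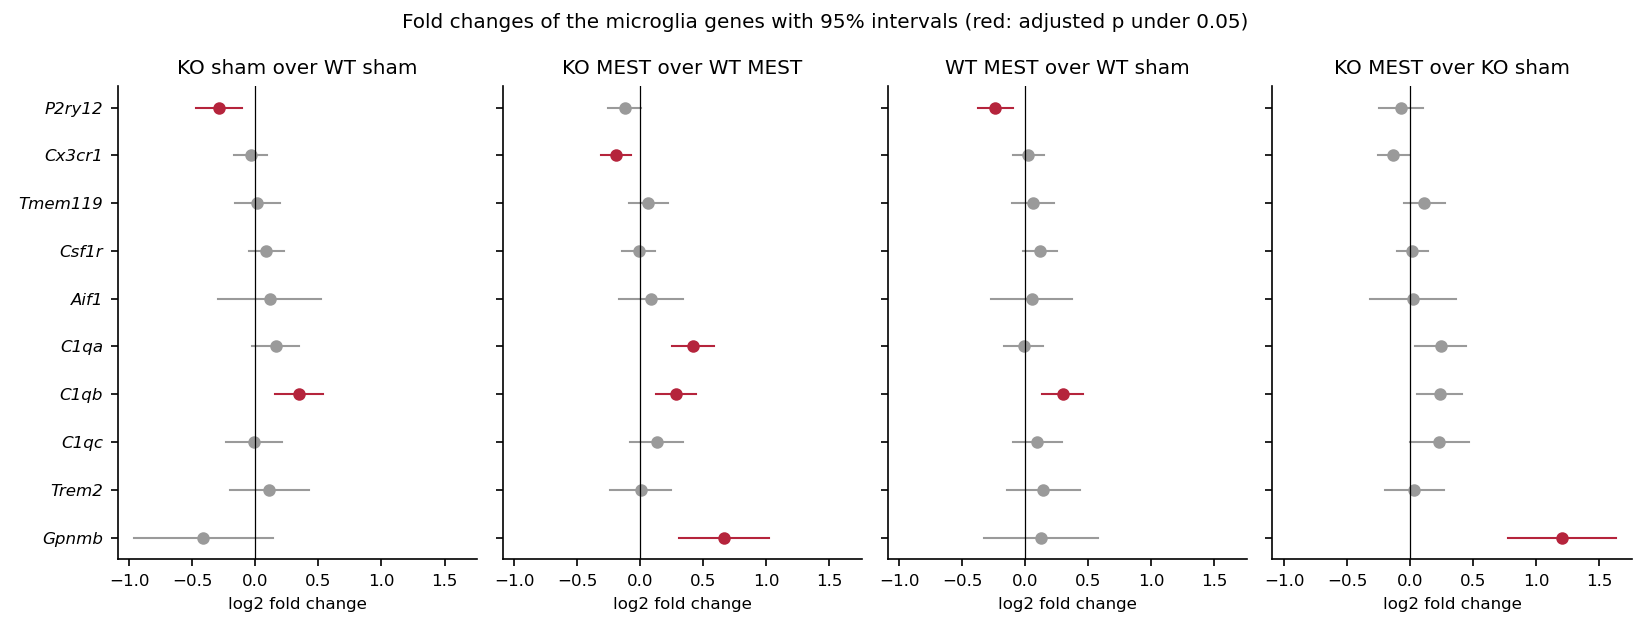
Log2 fold change (x axis) of each of the 10 genes (y axis) in the 4 comparisons between groups, with 95% intervals of the limma fit (lines) and adjusted p under 0.05 in red. P2ry12 and C1qb passed in both comparisons with WT sham mice, Cx3cr1, C1qa, C1qb and Gpnmb passed between KO and WT MEST mice, and Gpnmb alone passed between KO MEST and KO sham mice.

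Counted over the list, 2 of the 10 genes passed for KO sham over WT sham, 1 higher and 1 lower, where 15.4% of 16182 genes tested passed (8.58% higher and 6.83% lower), and no member had groups that did not overlap (16.8% of genes). For WT MEST over WT sham 2 passed, 1 in each direction, against 24.4% of all genes (12.3% higher and 12.2% lower), again with overlap in every member (16.7% of genes had none). These shares lie near those of all genes. For KO MEST over WT MEST 4 of 10 passed, 3 higher and 1 lower, against 9.86% of all genes (4.94% higher and 4.92% lower), and 3 members had groups without overlap (8.52% of genes). Without KO MEST library 2 only 1 member and 4.86% of all genes passed, 2 members passed without WT MEST library 4 or 5 or KO MEST library 5, and the share of all genes was 6.42% and 5.45% without WT MEST library 1 or 4 and 5.78% without KO MEST library 3 or 5. For KO MEST over KO sham 1 passed against 1.36% of all genes (0.762% higher and 0.601% lower), and the groups of Gpnmb and Cx3cr1 did not overlap (7.78% of genes). The difference of the seizure effects passed for 1 member, in the positive direction, and for 18.5% of all genes (8.85% higher and 9.68% lower). Median log2 fold changes of the 10 genes were 0.05, 0.08, 0.07 and 0.07 for these 4 comparisons between groups, with medians of all genes from -0.01 to 0.00. Comparisons that share a group of libraries are not independent of each other.

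The homeostatic genes were then set against the activation genes within each library. The mean log2(CPM + 0.1) of P2ry12, Tmem119, Cx3cr1 and Csf1r minus that of Trem2 and Gpnmb was 3.32 ± 0.31 in WT sham, 3.41 ± 0.20 in KO sham, 3.17 ± 0.17 in WT MEST and 2.77 ± 0.20 in KO MEST mice (SD). Its range was 3.0 to 3.76 in WT sham, 3.22 to 3.63 in KO sham and 2.93 to 3.37 in WT MEST libraries, while KO MEST libraries ran lower, from 2.47 to 2.98. With Trem2 as the only activation gene it was 2.53 ± 0.25, 2.37 ± 0.23, 2.38 ± 0.19 and 2.31 ± 0.13 in the same order of groups, with overlapping ranges, so that the lower value of KO MEST mice came with Gpnmb. Gpnmb stood at 3.38 ± 1.21% of the CPM of Csf1r in WT sham, 2.29 ± 0.530% in KO sham, 3.26 ± 0.494% in WT MEST and 5.38 ± 1.51% in KO MEST mice. These differences are a description with no test, because the genes that enter them were chosen with results known.

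**Figure D4:**
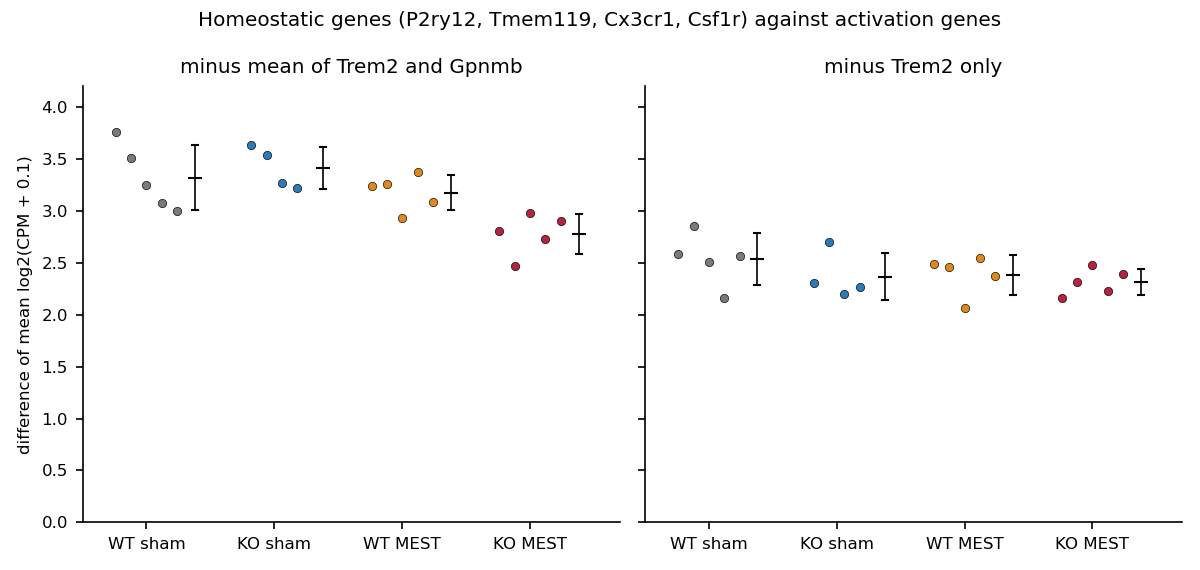
Mean log2(CPM + 0.1) of the 4 homeostatic genes minus that of Trem2 and Gpnmb (left) or minus Trem2 alone (right) in each library, with group mean and SD (bars). KO MEST libraries ran from 2.47 to 2.98 on the left, below every sham library, and overlapped all groups on the right, where their mean was 2.31.

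The C1q chains were also set against the homeostatic genes, again with no test. Their mean log2 level minus that of the homeostatic genes was -0.48 ± 0.11 in WT sham, -0.26 ± 0.08 in KO sham, -0.35 ± 0.11 in WT MEST and -0.00 ± 0.11 in KO MEST mice (SD). It ranged from -0.13 to 0.14 in KO MEST libraries and from -0.60 to -0.18 in the other 3 groups, without overlap. The genes that enter it were chosen with results known, and no share over all genes was computed for it. For KO MEST over KO sham no C1q chain passed with limma (0.23 to 0.24, adjusted p = 0.157 to 0.280), nor did any homeostatic member. C1qc passed in no comparison.

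A wider list of 28 homeostatic genes, which includes the 4 members, showed changes in both directions. For KO sham over WT sham 3 rose and 4 fell (15.4% of all genes passed), with a median log2 fold change of -0.06 (-0.01 over all genes). Rgs10, a regulator of G protein signalling (0.59), Tgfbr1, the type I receptor for TGF-beta on which the homeostatic state depends (0.39), and the Fc receptor-like Fcrls (0.34) were higher, and the phagocytic receptor Mertk (-0.39), the integrin Itgam (-0.35) and the lectin Siglech (-0.33) were lower, besides P2ry12. For WT MEST over WT sham 3 rose and 5 fell, near the share of all genes that passed (24.4%), with a median of -0.00, Tgfbr1 (0.43) and Rgs10 (0.36) being among the higher and Mertk (-0.35), the transcription factor Sall1 (-0.29) and Siglech (-0.28) among the lower. Both comparisons share the WT sham libraries, and Mertk and Sall1 are expressed by astrocytes or other brain cells as well.

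In MEST mice 2 genes of this list rose and 5 fell in KO against WT mice (9.86% of all genes passed). Olfml3, a secreted matrix protein (0.37), and Selplg, the ligand of P-selectin (0.31), were higher, and the lysophosphatidylserine receptor Gpr34 (-0.44), Tgfbr1 (-0.21) and P2ry13 (-0.22), a paralogue of P2ry12 that also senses ADP, were among the lower, besides Cx3cr1. No gene of the list passed for KO MEST over KO sham with limma or edgeR, where 7 had an unadjusted p under 0.05 with each tool and 1 passed with DESeq2. The seizure effect differed between genotypes for 5 of the 28 genes, near the share of all genes that passed this test (18.5%). Among them were Tgfbr1 (-0.60) and Rgs10 (-0.41), more positive in WT mice, and Selplg (0.34) and Sall1 (0.32), more positive in KO mice. Tgfbr1 was at 27.0 ± 2.30 and 35.3 ± 2.91 CPM in WT and KO sham mice and 36.3 ± 2.68 and 31.3 ± 1.03 CPM in WT and KO MEST mice (SD), with WT sham mice the lowest.

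Of 30 activation genes, 27 were tested in each comparison, and few passed. In sham mice 2 were higher in KO (Lyz2, lysozyme, 0.53, and Cd63, a tetraspanin of late endosomes, 0.36) and Apoe, which astrocytes express more highly than microglia, was lower (-0.42), with a median of 0.13 (15.4% of all genes passed). For WT MEST over WT sham the genes that passed were again Lyz2 (0.40), Cd63 (0.20) and Apoe (-0.36), a share below the 24.4% of all genes, with a median of 0.07. In MEST mice Cd68, a lysosomal protein of phagocytes (0.42), Timp2 (0.24) and Gpnmb were higher in KO and the lipoprotein lipase gene Lpl (-0.31) was lower, with a median of 0.03 (9.86% of all genes passed). Cd68 was at 7.32 to 8.90 CPM in KO MEST and 5.24 to 7.02 CPM in WT MEST libraries, with no overlap between these groups. For KO MEST over KO sham Gpnmb alone passed, and the median was -0.03 (1.36% of all genes passed). Of the genes raised in disease-associated microglia, Itgax was at most 0.916 CPM, Clec7a at most 1.19 CPM and Cst7 at most 0.396 CPM in any library, and the cytokine genes Il1b and Tnf were at most 0.514 and 0.379 CPM. Others of that set were well detected in the tissue of every group, with group means of 28.1 to 34.9 CPM for Lpl, 16.8 to 18.0 CPM for Spp1, 47.7 to 53.5 CPM for Axl, 49.0 to 53.1 CPM for Cd9, 9.39 to 11.1 CPM for Tyrobp and 1136 to 1524 CPM for Apoe. These, like all levels of this list, are levels of the whole tissue. How much of them came from microglia was not measured.

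**Figure D5:**
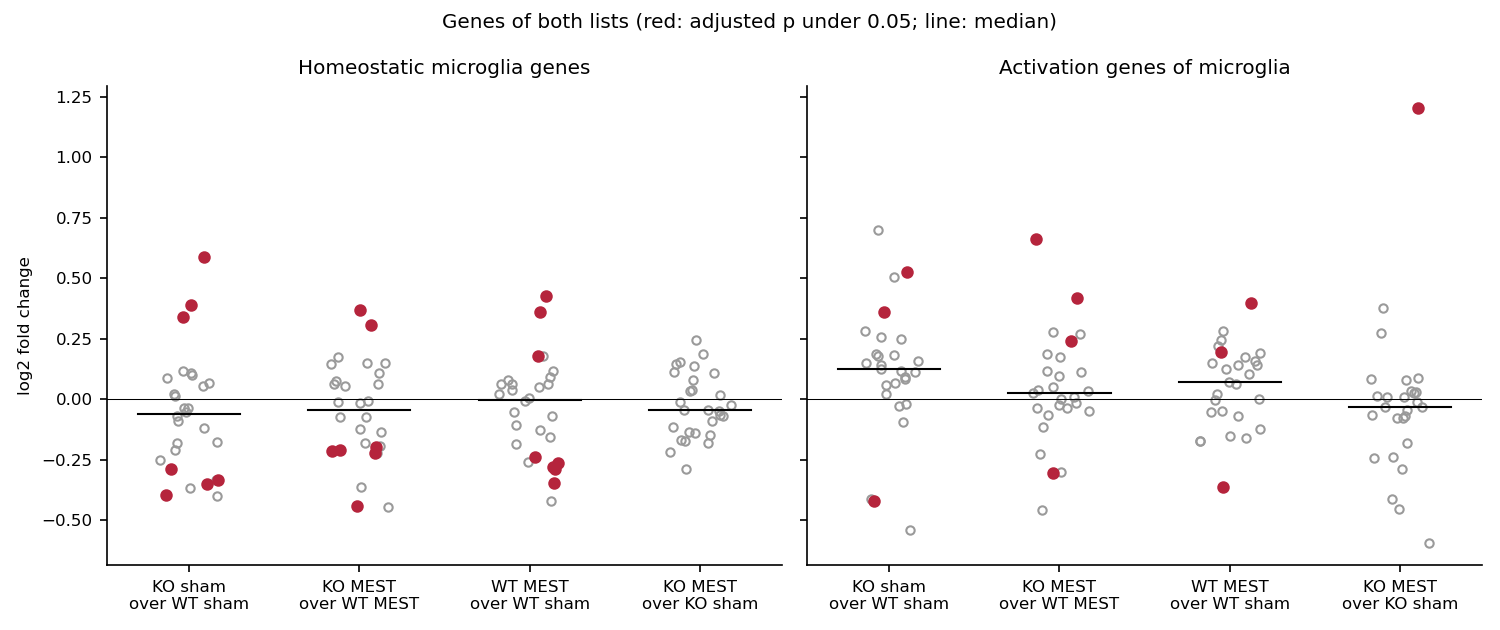
Log2 fold change (y axis) of every tested gene of the homeostatic list (28 genes, left) and of the activation list (27 genes, right) in the 4 comparisons between groups (x axis), with genes of adjusted p under 0.05 in red and the list median as a line. Both lists centred near 0, the homeostatic list held red points on both sides in 3 comparisons, and Gpnmb at 1.20 was the highest point of all.

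Few complement genes other than C1q passed. Of the 19 genes of this list, the 3 C1q chains included, 1 rose and 1 fell for KO sham over WT sham (15.4% of all genes passed). For KO MEST over WT MEST 3 rose (9.86% of all genes), and for WT MEST over WT sham 1 rose and 2 fell (24.4%). The counts of both comparisons with WT sham lie below the shares of all genes. None passed for KO MEST over KO sham with limma (1.36% of all genes) or edgeR. With DESeq2 3 did, and 6 had an unadjusted p under 0.05 with limma. C5ar1, the receptor of the C5a fragment, was higher in KO MEST than in WT MEST mice (0.91, adjusted p = 0.0311) at 0.988 ± 0.295 against 0.488 ± 0.210 CPM, and Cd55, which limits complement on cell surfaces, was lower in WT MEST than in WT sham mice (-0.41, adjusted p = 0.00294). Among the ligands and signalling partners of the member receptors, 14 of 15 listed genes were tested. Il34, a ligand of CSF1R, was at 38.9 ± 3.52 and 44.5 ± 1.36 CPM in WT and KO sham mice and 45.4 ± 3.91 and 51.9 ± 4.36 CPM in WT and KO MEST mice and passed for WT MEST over WT sham (0.22, adjusted p = 0.0264), while Csf1, the other ligand, Cx3cl1, which encodes fractalkine, and Tyrobp, the adaptor of TREM2, passed in none.

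Of the genes beyond the members that passed in these lists and in that of border macrophages, 6 of 10 kept their call in every alternative for KO sham over WT sham (Apoe, Cd63, Itgam, Mertk, Rgs10 and Tgfbr1), 5 of 10 for KO MEST over WT MEST (among them Cd68, Gpr34, Olfml3 and Timp2), 7 of 13 for WT MEST over WT sham (Apoe, Cd55, Mertk, Rgs10, Sall1, Siglech and Tgfbr1) and 4 of 7 for the difference of the seizure effects (among them C1s1, a complement protease, Rgs10 and Tgfbr1). The others missed the threshold in at least 1 alternative or without at least 1 library.

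Other cell types that carry some of these genes were measured beside them. Border macrophages express Csf1r, Cx3cr1, Aif1 and C1q, and their 7 marker genes summed to 11.7 to 18.5 CPM in WT sham, 13.3 to 14.3 CPM in KO sham, 10.2 to 14.7 CPM in WT MEST and 10.6 to 13.7 CPM in KO MEST libraries, with Mrc1 the highest. Only Cbr2 of the 7 passed, for KO sham over WT sham (1.06, adjusted p = 0.0331) and for WT MEST over WT sham (0.91, adjusted p = 0.0458). Of all genes 15.4% and 24.4% passed in these comparisons. Cbr2 was at 0.367 ± 0.192 CPM in WT sham and 0.758 to 0.828 CPM on average in the other groups. Its calls missed the threshold in 11 of 20 and 11 of 21 alternative settings and left-out libraries. The 8 genes of monocytes and neutrophils summed to at most 1.56 CPM in any library, and Ly6c2 and S100a8 were at most 0.104 and 0.391 CPM. T and B cell genes summed to at most 0.762 CPM. Of the 5 blood genes 3 (the globin genes Hba-a2, Hbb-bs and Hbb-bt) had no read in any library. The treatment of multi-mapping reads is not given in the sources used here, so this does not show that blood was absent. Alas2, the haem synthesis enzyme of red cell precursors, was at 3.85 ± 0.695 CPM in WT sham, 4.61 ± 0.877 CPM in KO sham, 2.69 ± 0.751 CPM in WT MEST and 3.71 ± 0.846 CPM in KO MEST mice (SD). It was lower in WT MEST than in WT sham mice (-0.52, adjusted p = 0.0434).

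Oligodendrocyte and endothelial genes were lower in the KO MEST group, in which C1qa, C1qb and Gpnmb were highest. The 6 oligodendrocyte genes summed to 5825 to 6375 CPM in KO MEST libraries against 6008 to 8271 CPM in WT MEST and 6523 to 7062 CPM in KO sham libraries, and 3 of 6 were lower in each of these comparisons. The 6 endothelial genes summed to 232 to 249 CPM in KO MEST and 261 to 279 CPM in WT MEST libraries, with 2 of 6 lower. Of all genes 4.92% were lower for KO MEST over WT MEST and 0.601% for KO MEST over KO sham. The summed levels of 8 astrocyte genes (4959 to 5714 CPM over all libraries) and 7 neuronal genes (10361 to 11484 CPM) overlapped between all groups, while single genes of both lists passed in both directions. For WT MEST over WT sham, where P2ry12 and C1qb passed, the astrocyte genes Gfap (0.54) and Slc1a2 (0.14) were higher and Sox9 (-0.46) and Slc1a3 (-0.21) lower, and the neuronal genes Gad1 (0.21), Gad2 (0.23) and Slc17a7 (0.15) were higher and Rbfox3 (-0.37) and Camk2a (-0.19) lower. For KO sham over WT sham Sox9 (-0.55), Rbfox3 (-0.38) and Camk2a (-0.21) were lower. Between KO MEST and WT MEST mice no astrocyte gene passed, although 3 of 8 had an unadjusted p under 0.05 with each of limma, edgeR and DESeq2. Of the neuronal genes Slc17a7 (0.28) and Rbfox3 (0.22) were higher and Gad1 (-0.25) lower. Slc17a7 (0.36) was the neuronal gene that passed for KO MEST over KO sham.

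The 6 fibroblast genes summed to 188 to 258 CPM over all libraries, with ranges that overlapped between all groups. None of the 6 passed for the difference of the seizure effects, which Gpnmb and 18.5% of all genes passed. Col1a1, a chain of type I collagen, passed in both comparisons between groups in which Gpnmb passed. It was at 6.36 ± 1.25 CPM in WT sham, 6.46 ± 1.61 CPM in KO sham, 10.2 ± 1.33 CPM in WT MEST and 13.6 ± 1.39 CPM in KO MEST mice (SD), higher in KO MEST than in KO sham mice (1.09, adjusted p = 0.00555), in KO MEST than in WT MEST mice (0.42, adjusted p = 0.0180) and in WT MEST than in WT sham mice (0.68, adjusted p = 0.000552). Col1a2 was higher for WT MEST over WT sham (0.34), and the growth factor gene Igf2 was lower for KO sham over WT sham (-0.27), WT MEST over WT sham (-0.53) and KO MEST over KO sham (-0.48). The part of the differences in these other cell types in the results for the microglia genes was not tested.

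Between mice of the same group, some members varied together. After removal of the group means, log2 levels over the 19 libraries were correlated for all 45 pairs, with permutation p-values adjusted over the pairs. Aif1 and C1qa had Pearson's r = 0.756 (p = 0.00074, adjusted p = 0.0303) and Spearman's rho = 0.821 (p = 0.00048, adjusted p = 0.0108), with r = 0.725 without the 2 libraries farthest from the median. C1qb and Csf1r had r = 0.739 (adjusted p = 0.0303) and rho = 0.689 (adjusted p = 0.0258), with r = 0.662 without 2 libraries, and C1qa and C1qb had r = 0.727 (adjusted p = 0.0303) and rho = 0.816 (adjusted p = 0.0108), with r = 0.679. C1qc and Trem2 had r = 0.688 (adjusted p = 0.0360), but rho = 0.640 did not pass (adjusted p = 0.0526). A further 3 pairs passed by rho and not by r, namely Cx3cr1 and Csf1r (rho = 0.716, adjusted p = 0.0332, and r = 0.643, adjusted p = 0.0905), C1qa and Csf1r (0.674, 0.0258, and 0.612, 0.0555) and Cx3cr1 and Trem2 (0.681, 0.0258, and 0.607, 0.0932). P2ry12 and Gpnmb had r = -0.03 (adjusted p = 0.923), and the lowest value of all pairs was that of P2ry12 and C1qc (r = -0.42, adjusted p = 0.251). These libraries share their scaling, and the permutations kept libraries within their groups.

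Among 14137 other genes with a mean of at least 1 CPM, those whose levels over the 19 libraries were most like the mean z-score of the 10 members were Polr2e (r = 0.798), Axl (0.782), Padi2 (0.772), Pla2g6 (0.768), Slc2a1 (0.748), Nsmf (0.745), Sardh (0.742) and Cxcr4 (0.734). This is a description of the same libraries, with group means left in. Of these genes Axl, a receptor for apoptotic cells, is in the activation list, where it passed in no comparison.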

How the data were processed

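Per the labels and the methods of the study, RNA was sequenced after a stranded poly(A) protocol, and the authors trimmed reads with Trimmomatic 0.39, aligned them to mm10 with HISAT2 2.2.1, counted them with featureCounts of Subread 2.0.3 and normalized them with DESeq2 1.36.0. The strand and multi-mapping settings are not given in the sources used here. The deposited signal of each library is its read count divided by 1 size factor. Whole reads were recovered from it (all values within a tolerance of 0.01, although the size factor of KO sham library 5 lies within 0.01 of 1, so that this check cannot tell its reads from rounded values), and 27 of 24421 symbols that had become dates were left out (at most 0.384% of the reads of a library). The deposited tables also hold the fold changes and p-values of the authors, which were not used.

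CPM was computed from the total of each library. The test was limma 3.58.1 (trend and robust) in R 4.3.3 on log2(CPM + 0.1), 2 groups at a time, over genes that reached 0.2 CPM in a number of libraries equal to the smaller group, and the difference of seizure effects in a model of 4 group means with all 19 libraries. Genes passed at an adjusted p under 0.05, two-sided, over all genes tested. The fit was tested on simulated data. Alternatives were TMM and median-of-ratios scaling, edgeR 4.0.16 and DESeq2 1.42.0 on the recovered reads, pseudocounts of 0.5 and 1, no filter, a filter at 1 CPM, all 19 libraries in 1 fit, a replicate block, a length trend removed by loess (span 0.5), and each library left out in turn. Correlations used 100000 permutations. No 2 libraries of the same group agreed within sampling noise, and all were counted as separate mice. Libraries of different groups were not compared in this way.

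The members and lists were chosen with earlier results of these data known. Named were all members, in each list up to 4 passing genes per direction with the smallest p, and the 8 genes most like the members. The values of 1 gene that these rules name are not reported here. Genes were placed with GENCODE vM21 and promoters taken from RefSeq (GRCm38.p6). Python 3.11.15 (pandas 2.3.3, numpy 2.4.6, matplotlib 3.10.9) was used for tables and plots.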

Additional observations from a re-analysis of the deposited data

Results flagged for a closer look

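Among 44 sets of values tested for a sample far from the others (10 genes and the homeostatic minus activation difference in 4 groups), 3 held one, where chance gives about 1 in 20. Gpnmb was at 7.24 CPM in KO MEST library 2, against 3.66 to 4.51 CPM in the others of that group. Trem2 was at 6.95 CPM in KO sham library 3, against 9.02 to 9.34 CPM in the others. P2ry12 was at 44.0 CPM in KO MEST library 4, against 45.7 to 46.0 CPM in the others, a small distance in a narrow group. The seizure effect on Gpnmb differed between genotypes by 1.08 on the log2 scale in its own test (adjusted p = 0.0206 from limma), with all 5 KO MEST libraries above the 4 KO sham libraries and the WT groups overlapping.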

How the results depend on the processing

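No fold change of a member that passed in the main test or in an alternative changed its sign. For KO sham over WT sham the members that passed numbered 1 instead of 2 with edgeR (P2ry12 lost, adjusted p = 0.0514), with no filter on low values and with the length trend removed. The difference of the seizure effects passed for 2 members with the length trend removed, C1qa being added to Gpnmb. Leaving out each library in turn gave 1 to 2 members for KO sham over WT sham, 1 to 4 for KO MEST over WT MEST, 2 for WT MEST over WT sham, 0 to 1 for KO MEST over KO sham and 0 to 1 for the difference. Homeostatic minus activation was 2.53, 2.37, 2.38 and 2.31 without Gpnmb (WT sham, KO sham, then WT MEST, KO MEST mice), and with a pseudocount of 1 it was 3.11 in KO sham and 2.94 in WT MEST mice. Fitting all 19 libraries together took the adjusted p of Gpnmb for KO MEST over WT MEST to 0.0604.

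Replicate numbers gave no clear sign of paired mice. Deviations of libraries with the same number correlated at -0.0988 to 0.366 and exceeded 0.1 in 2 pairs only. The value of 0.366 was that of KO sham library 3 and KO MEST library 3, and KO sham library 4 and KO MEST library 1 had 0.365. Low correlations over all genes cannot show that the mice were unpaired. With a replicate block no member passed for KO MEST over KO sham (Gpnmb 1.25, adjusted p = 0.0571). With the replicate block and the length trend removed together, 1 member passed for KO sham over WT sham, 2 for KO MEST over KO sham and 2 for the difference. With the block alone, C1qb was lost (adjusted p = 0.0677) and Gpnmb gained (-0.64, adjusted p = 0.0481) for KO sham over WT sham, and Cx3cr1 was lost for KO MEST over WT MEST (adjusted p = 0.0834).

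For KO MEST over KO sham, the count of all genes that passed was 220 in the main test, 915 with DESeq2, 523 with all 19 libraries, 55 with no filter, 105 with the replicate block, 376 with the length trend removed, 332 with the block and the length trend removed, and 14 (without KO sham library 2) to 434 (without KO sham library 3) with a library left out. Of these calls 55.9% were higher in the main test, 66.4% with median-of-ratios scaling, 46.8% with all 19 libraries in 1 fit and 75.9% without KO sham library 5. For KO MEST over WT MEST the count was 1584, and 785, 932 and 933 without KO MEST library 2, 3 or 5 and 1038 and 881 without WT MEST library 1 or 4. Gpnmb and Aif1 had the fewest reads, and changes of their size in other groups could be missed at this depth.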
